A study of Mus musculus with 9 samples.

Results

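The genes described here encode the proteins of the cytosolic ribosome, in mouse lymphomas driven by Myc. They were chosen by platform symbol alone (Rpl or Rps followed by a number, with an a or x where the gene has one, Rplp0 to Rplp2 and Rpsa), and mitochondrial ribosomal proteins and S6 kinases were left out. Of the 18193 genes that had a probe set of their own on the array, 42 were members, and 41 of these passed the filter on low signal. The 9 lymphomas were 5 that carried both transgenes, Eμ-Myc and Eµ-TTP-1 (called double-transgenic here), and 4 Eμ-Myc lymphomas without Eµ-TTP-1, all on a background of 94% C57BL/6. In both transgenes the name Eμ denotes the immunoglobulin heavy chain enhancer, which is active in B lineage cells. TTP, the product of Zfp36, binds AU-rich elements in mRNAs and promotes their decay. By its title the study concerns how TTP restrains lymphoma caused by Myc. The comparison here was of established tumours and addresses whether ribosomal protein mRNAs differed between tumours with and without the second transgene. The labels give neither the age nor the sex of the mice.

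A ribosome consists of a small subunit, which decodes the mRNA, and a large subunit, which joins amino acids. Each holds ribosomal RNA and many different proteins, nearly all needed in equal number. Their mRNAs begin with a short tract of pyrimidines, the 5′ terminal oligopyrimidine (TOP) tract, through which their translation follows the activity of the kinase mTOR. MYC raises the output of ribosomal genes, and in mice a lowered dose of the ribosomal protein gene Rpl24 slows Eμ-Myc lymphoma. Some ribosomal proteins, among them Rpl5 and Rpl11, also bind Mdm2, the ubiquitin ligase of p53.

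The mRNA starts of members show where a pyrimidine run was found and where it was not. In the RefSeq table (build GRCm38.p6), 36 of the 41 tested members had 42 start sites. A run of 5 or more pyrimidines that began with C lay on the sense strand between 10 bases before and 20 bases after the start in 27 of these 42 windows, or 64.3% (25 of 36 genes), against 35.8% of all 32851 windows of the table. The windows below are of members whose values are given later, 5′ to 3′ with the annotated start at base 11, and capitals mark the longest run. The last 3 hold no such run in this window, which says only that these letters are absent there.
Rpl35, chr2:39005112-39005141, minus strand: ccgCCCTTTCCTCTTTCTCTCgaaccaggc
Rpl27a, chr7:109519185-109519214, plus strand: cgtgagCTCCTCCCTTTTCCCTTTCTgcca
Rpl14, chr9:120571507-120571536, plus strand: ggCCCTCTCTCTTCTCgctgagcgccgcca
Rps10, chr17:27635225-27635254, minus strand: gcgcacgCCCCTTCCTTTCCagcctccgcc
Rps6, chr4:86857348-86857377, minus strand: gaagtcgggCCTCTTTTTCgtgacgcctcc
Rps27, chr3:90213629-90213658, minus strand: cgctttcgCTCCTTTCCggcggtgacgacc
Rps9, chr7:3704031-3704060, plus strand: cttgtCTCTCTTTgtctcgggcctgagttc
Rpl27, chr11:101442235-101442264, plus strand: ctgttcctgtctgctgctcgtgctgctaat
Rpl37, chr15:5116603-5116632, plus strand: cctgggcggaagcttatccacaggaagtgg
Rps15, chr10:80292421-80292450, plus strand: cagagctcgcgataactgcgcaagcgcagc
In the 250 bases before the start, searched on both strands with each motif counted on its own, CCGGAA, the core of ETS factor motifs, stood in 45.2% of the members' windows and in 12% of all windows. The E-box CACGTG, a sequence that MYC with MAX can bind, stood in 11.9% of the members' windows and 6.02% of all, in 4 member genes. The members' share counts the same Rpl19 site from both of that gene's start sites. The stretch around the E-box upstream of Rpl14, with the motif in capitals, reads as follows.
Rpl14, chr9:120571332-120571371, plus strand: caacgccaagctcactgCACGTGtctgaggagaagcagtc
GGGCGG, the GC box, was found in 45.2% of the members' windows against 32.7% of all, CCAAT in 31.0% against 33.8%, and TATAAA in 7.14% against 12.4%. These shares describe letters and not binding.

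The arrays measured these genes unevenly. The reference names 76 genes that fit the symbol rule, and 34 of them had no probe set of their own in the table used. Of these 34, 27 were named only by probe sets shared with pseudogenes or other genes, and the other 7 by none; these 34 are not analysed here. Of the 41 tested members, 19 encode small subunit proteins and 22 large subunit proteins, and for 13 of them the probe set belongs to the _x_at class, which can hybridise to other transcripts. Rps16, a small subunit protein, was the member that did not pass the filter: its probe set read 1.90 to 1.97 (log2 signal) in double-transgenic lymphomas and 1.93 to 1.98 in Eμ-Myc lymphomas, which is background in each of the 9 arrays.

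Most members gave signals close to the top of the scale. The brightest members were Rps29, Rpl35, Rpl13a, Rplp2 and Rpl4, of which Rps29 read 16.42 to 16.62 in double-transgenic and 16.44 to 16.57 in Eμ-Myc lymphomas. The highest probe set of any kind on an array read 16.76 to 16.91 on the log2 scale, and 33 of the 41 members had a mean between 14.89 and 16.52. Among all 10172 tested genes the median of the mean signals was 9.55. The other 8 members, Rps6, Rpl37, Rps25, Rpl12, Rpl14, Rpl27a, Rps27 and Rpl39, had means between 8.16 and 12.24. Probe sets differ in how well they bind their target, so these signals order probe sets and not mRNA amounts.

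The check of the tissue and of other cells in it was as follows. All 7 B lineage markers that were named on the array passed the filter, with a list mean of 11.85 to 12.71 per array in double-transgenic lymphomas and 12.10 to 12.51 in Eμ-Myc lymphomas. Of 4 T cell markers on the array, 2 passed it, with a median signal of 4.63, and Cd3e and Cd3g did not. The erythroid genes Hba-a1 and Alas2 did not pass it. The mean of 6 macrophage markers ran from 8.37 to 9.98 in double-transgenic lymphomas and from 9.41 to 10.94 in Eμ-Myc lymphomas. That of 6 granulocyte markers ran from 3.85 to 9.86 in double-transgenic and 5.09 to 9.18 in Eμ-Myc lymphomas, and that of 4 stromal markers from 8.03 to 11.03 in double-transgenic and 9.16 to 11.19 in Eμ-Myc lymphomas. All 5 granulocyte markers past the filter had lower means in double-transgenic lymphomas (median log2 difference -2.68), and they moved together (median Pearson correlation 0.94). Of 6 macrophage markers 5 were lower (median -0.18), and of 4 stromal markers 2, where 58.9% of all genes were higher. In each of these lists 0 markers had a limma adjusted p under 0.05. The part of these cells in the ribosomal values was not tested, and in whole tumours fewer cells of a type and less RNA per cell cannot be told apart. Zfp36, the gene of TTP, averaged 10.55 ± 0.38 in double-transgenic and 10.57 ± 0.41 in Eμ-Myc lymphomas (SD, n = 5 and 4), a difference of -0.020 (95% interval -0.59 to 0.55). The second transgene thus did not show as a higher Zfp36 signal, and whether this probe set detects its transcript is not given, so the genotypes used below are those of the labels.

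On their brightest probe sets, most of which read near the top of the scale, ribosomal protein genes had a small spread over the lymphomas, and on dimmer probe sets they did not. The SD of a member's log2 values over the 9 tumours had a median of 0.064, against 0.36 over all tested genes, and 32 of the 41 members (78.0%) had an SD under 0.1, against 2.38% of all genes. Genes of high signal had a small spread in general: the 33 members with a mean over 14 had a median SD of 0.062, against 0.14 in the 225 other genes in that range, whose median signal of 14.49 was lower than the 15.71 of these members. In the range of the 8 members with lower signal, the members had a median SD of 0.24 and other genes one of 0.32. Over all member probe sets past the filter the order was the opposite at a mean of 10 to 14. There 11 member probe sets, of 10 genes, had a median SD of 0.35, against 0.27 in other genes, each counted with 1 probe set. At a mean of 4 to 10 the values were close, with 0.49 over 12 member probe sets of 9 genes and 0.48 in other genes. These are descriptions with no test.

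**Figure D1:**
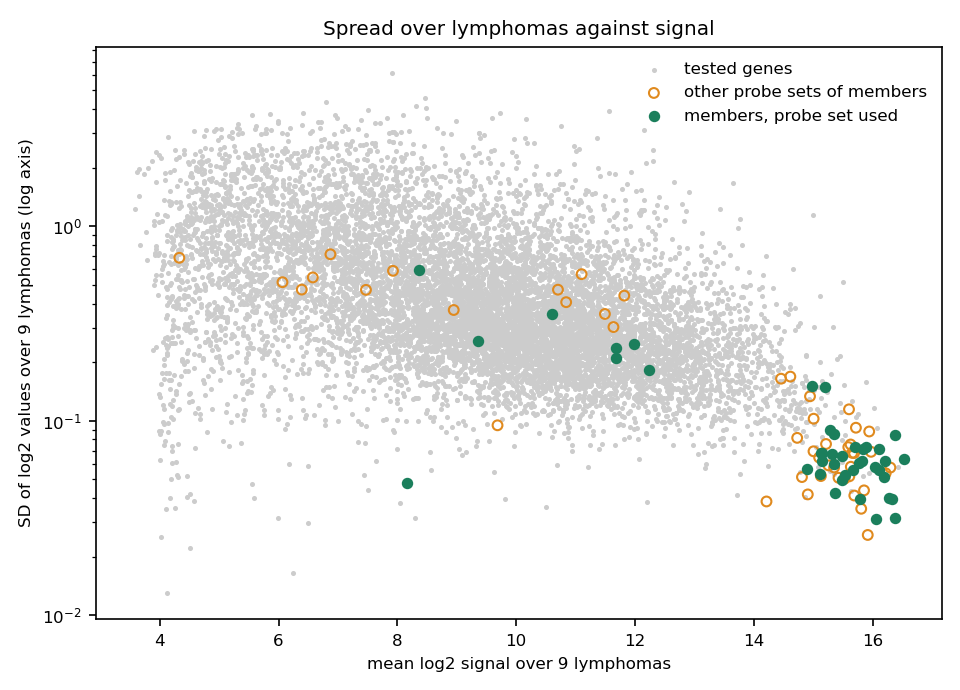
Each point is a probe set, with its mean log2 signal over 9 lymphomas on the x axis and the SD of its log2 values on a logarithmic y axis. Filled green points are the 41 members, open orange circles their other probe sets past the filter, and grey points all 10172 tested genes. The members over a signal of 14 lie at the lower right with SDs of 0.031 to 0.15, and member probe sets of lower signal spread more.

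The members with the smallest spread were Rplp0 (SD 0.031), Rpl13a (0.031), Rpl7 (0.0395), Rplp2 (0.0397), Rpl4 (0.0400) and Rpl19 (0.042). Rplp0 and Rplp2 belong to the stalk of the large subunit, which recruits elongation factors. Rplp2 read 16.30, 16.36, 16.35, 16.33 and 16.36 in the 5 double-transgenic lymphomas, against 16.31, 16.39, 16.27 and 16.28 in the 4 Eμ-Myc lymphomas. The Eμ-Myc group holds both the highest and the lowest value, and the whole range of Rplp2 is 0.12 on the log2 scale.

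The members with the largest spread were Rps27 (SD 0.59), Rpl14 (0.35), Rpl27a (0.26), Rpl37 (0.25), Rpl12 (0.24) and Rps25 (0.21), all among the 8 of lower signal. Rpl27a, a large subunit protein, read 9.07, 9.23, 9.06, 9.47 and 9.92 in double-transgenic lymphomas, against 9.32, 9.33, 9.33 and 9.42 in Eμ-Myc lymphomas. Rps25, of the small subunit and known for its role at viral internal ribosome entry sites, read 11.72, 11.29, 11.99, 11.68 and 11.84 in double-transgenic lymphomas, against 11.49, 11.88, 11.64 and 11.62 in Eμ-Myc lymphomas. In both genes the double-transgenic lymphomas hold the highest and the lowest of the 9 values, so their range encloses that of the Eμ-Myc group. Rpl39, a very short protein that lines the exit tunnel of the large subunit, differed from these: it had a mean of 8.16 and an SD of only 0.048.

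Dimmer probe sets of the same genes varied more. For 10 of the 33 members with high signal, 14 other probe sets of the same gene passed the filter with a mean under 14. In each of these 14 the SD was larger than that of the probe set with the highest mean, by 1.57 to 10.04 times with a median of 7.9 times. Rpl41, the shortest protein of the ribosome, had an SD of 0.056 on its brightest probe set and 0.57 on its dimmest. That dimmest probe set read 11.31, 10.51, 9.92, 11.15 and 11.89 in double-transgenic lymphomas, against 11.33, 11.23, 11.34 and 11.23 in Eμ-Myc lymphomas. Double-transgenic replicates 2 and 3 are the low values there, whereas the brightest Rpl41 probe set read 14.88 and 14.90 in the same 2 tumours, among 14.79 to 14.98 in all 9.

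Several other genes had low values in the same 2 tumours on their dimmer probe sets. The Rps9 probe set with a mean of 10.70 read 10.30 and 9.61 in double-transgenic replicates 2 and 3, against 10.80 to 11.09 in the 4 Eμ-Myc lymphomas, and the Rps10 probe set with a mean of 7.93 read 7.29 and 6.94 there, against 7.68 to 8.20. Rpl22 and Rps24 went the other way in replicate 2: the Rpl22 probe set with a mean of 10.84 read 11.58, against 10.17 to 11.05 in Eμ-Myc lymphomas, and the Rps24 probe set with a mean of 11.49 read 12.19, against 11.04 to 11.64. Over the 18 members that had a probe set under 14, taking the brightest such probe set of each, 12 lay below their own 9-tumour median in double-transgenic replicate 2, 13 in replicate 3 and 1 in replicate 5. Measures of RNA quality were not used here, so the part of RNA quality or probe position in these values was not tested. Probe sets of 1 gene followed each other more closely at high signal: the Pearson correlation over 9 tumours with the brightest probe set had a median of 0.62 over 32 other probe sets above 14 and of 0.31 over 15 under 14.

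No ribosomal protein gene passed the test between the genotypes. With limma and Benjamini-Hochberg adjustment over all 10172 genes, 0 of 41 members had an adjusted p under 0.05, beside 0.0% of all genes, and 0 had an unadjusted p under 0.05, beside 5.67% of all genes. The smallest adjusted p of a member was 0.875 (limma). The values of the groups overlapped in all 41 members, beside 1.64% of all genes without overlap. Differences, double-transgenic minus Eμ-Myc on the log2 scale, ran from -0.23 to 0.22 with a median of 0.016, against a median of 0.051 over all genes. The 95% intervals of 37 members lay within 0.5 either way. In this fit each SE is pulled towards the larger spread of all genes, and the median SE of the members was 0.094. With an intensity trend in the prior it was 0.050, and again 0 members passed.

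The direction of the small differences rested on the scaling of the arrays. As deposited, 28 of 41 members had higher and 13 lower means in double-transgenic lymphomas, and 58.9% of all genes were higher. When each array was centred on its median, 4 were higher and 37 lower, with 45.8% of all genes higher and a member median of -0.060. With a further quantile normalisation 33 were higher and 8 lower, with 52.6% of all genes higher. After each gene was set against its chromosome's median, 16 were higher and 25 lower, with 54.7% of all genes higher. As deposited, 14 of 19 small subunit members and 14 of 22 large subunit members were higher.

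**Figure D2:**
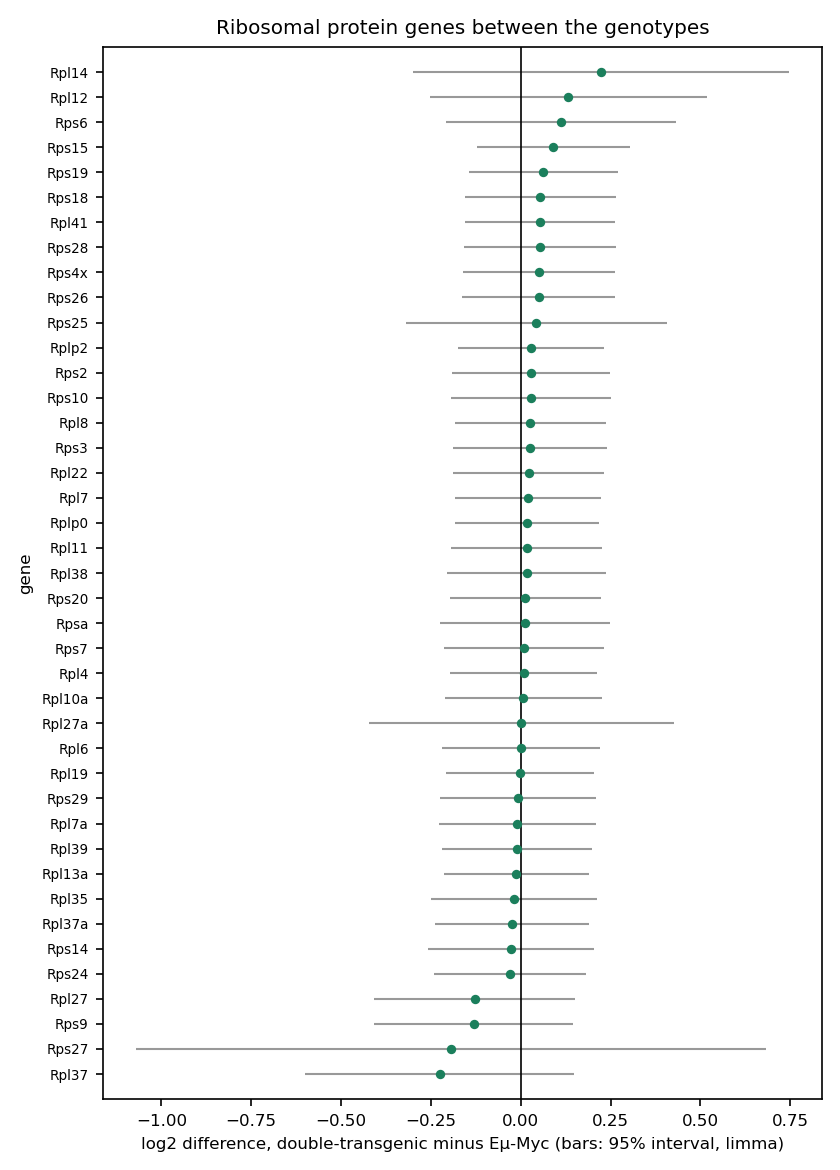
Each row is a tested member, the x axis gives its log2 difference, double-transgenic minus Eμ-Myc, and bars are limma's 95% intervals (5 against 4 lymphomas). All 41 intervals cross 0, and the points lie between -0.23 and 0.22.

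Members were named by the limma p in each direction, and those with lower means in double-transgenic lymphomas come first. By the exact permutation p the order differs, with Rps15, Rps19 and Rpl41 ahead of Rpl37. Rpl37, a large subunit protein, read 11.91, 11.39, 11.99, 12.01 and 12.09 in double-transgenic lymphomas, against 12.04, 12.01, 12.32 and 12.04 in Eμ-Myc lymphomas. The groups overlap, replicate 2 is the low value of the double-transgenic group, and replicate 3 the high value of the Eμ-Myc group. The log2 difference was -0.23 (SE 0.16, limma adjusted p = 0.875, exact permutation p = 0.190, two-sided). Rps9, a small subunit protein, read 15.21, 14.89, 15.16, 15.15 and 15.28 in double-transgenic lymphomas, against 15.32, 15.22, 15.43 and 15.11 in Eμ-Myc lymphomas, a difference of -0.13 (SE 0.12, limma adjusted p = 0.898). Rpl27, of the large subunit, read 14.99, 14.70, 14.89, 14.98 and 15.02 in double-transgenic lymphomas, against 15.06, 14.90, 15.27 and 14.94 in Eμ-Myc lymphomas, a difference of -0.13 (SE 0.12, limma adjusted p = 0.901).

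These 3 genes shared their pattern over the tumours: each was lowest in double-transgenic replicate 2 and highest in Eμ-Myc replicate 3. Over the 9 tumours, Pearson's r was 0.93 between Rpl27 and Rps9 (Spearman's rho 0.82), 0.91 between Rpl37 and Rps9 (0.73) and 0.88 between Rpl27 and Rpl37 (0.79), given as a description. The brightest probe sets of Rps9 and Rpl37 are of the _x_at class, which can hybridise to other transcripts, and that of Rpl27 is not. The part of this class in the shared pattern was not tested. Not all probe sets of these genes had this pattern. A second Rps9 probe set, outside the _x_at class and with a mean of 14.81, had an SD of 0.051 and r = 3.1e-05 to the first. Its difference was 0.027, of the opposite sign. The dimmest Rps9 probe set, with a mean of 10.70, had a difference of -0.33 and r = 0.44 to the first. A second Rpl27 probe set, of the _x_at class, followed the first (r = 0.86). The other one, outside that class and with a mean of 14.91, had an SD of 0.042, a difference of -0.023 and r = 0.49 to the first. Its lowest value was again in double-transgenic replicate 2 and its highest in double-transgenic replicate 1. Rpl37 had a single probe set. With 1 lymphoma left out at a time the difference ran from -0.28 to -0.10 for Rpl37, from -0.18 to -0.070 for Rps9 and from -0.18 to -0.053 for Rpl27, smallest without double-transgenic replicate 2 for Rpl37 and Rps9 and without Eμ-Myc replicate 3 for Rpl27.

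Rps27 and Rps24 complete the 5 lower members with the smallest p. Rps27, a zinc-finger protein of the small subunit, read 8.73, 7.90, 8.16, 8.17 and 8.38 in double-transgenic lymphomas, against 9.77, 8.20, 7.85 and 8.03 in Eμ-Myc lymphomas. Its difference of -0.19 (SE 0.39, limma adjusted p = 0.966) came from the 9.77 of Eμ-Myc replicate 1, and without that tumour it was 0.24. Rps24, also of the small subunit and mutated in some human Diamond-Blackfan anaemias, had a difference of -0.029 (SE 0.093), with an SD of 0.012 in double-transgenic and 0.086 in Eμ-Myc lymphomas.

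Among members with higher means in double-transgenic lymphomas, Rps15, a small subunit protein of the decoding region, came nearest to separating the groups on the brightest probe sets. It read 15.76, 15.81, 15.65, 15.73 and 15.78 in double-transgenic lymphomas, against 15.73, 15.67, 15.62 and 15.61 in Eμ-Myc lymphomas. The groups overlap through double-transgenic replicate 3, which lay below 2 Eμ-Myc lymphomas, and replicate 4, which equalled the highest of them. The difference was 0.091 (SE 0.093, limma adjusted p = 0.912, exact permutation p = 0.0714, two-sided), a 95% interval of -0.12 to 0.30. On its other probe set the difference was 0.038 (exact permutation p = 0.532).

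Rpl14, a large subunit protein, read 10.52, 10.89, 10.28, 10.90 and 10.94 in double-transgenic lymphomas, against 10.04, 10.79, 10.21 and 10.90 in Eμ-Myc lymphomas. Each group holds both low tumours, from 10.04 to 10.52, and high ones, from 10.79 to 10.94, with none between. The difference was 0.22 (SE 0.23, limma adjusted p = 0.912), and it was 0.075 without Eμ-Myc replicate 1, 0.36 without Eμ-Myc replicate 4 and 0.082 with weights per array. Rps6, the small subunit protein that S6 kinases phosphorylate, had 0.11 (SE 0.14), Rpl12, of the large subunit near the stalk base, 0.13 (SE 0.17), and Rps19, the gene most often mutated in human Diamond-Blackfan anaemia, 0.063 (SE 0.091). Their limma adjusted p ran from 0.930 to 0.941. With 1 lymphoma left out at a time, Rps6 ran from 0.039 (without double-transgenic replicate 2) to 0.20 (without double-transgenic replicate 3), Rpl12 from 0.047 (without Eμ-Myc replicate 3) to 0.23 (without double-transgenic replicate 2), and Rps19 from 0.035 to 0.079. With the mean of its probe sets, Rps6 had 0.0048.

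**Figure D3:**
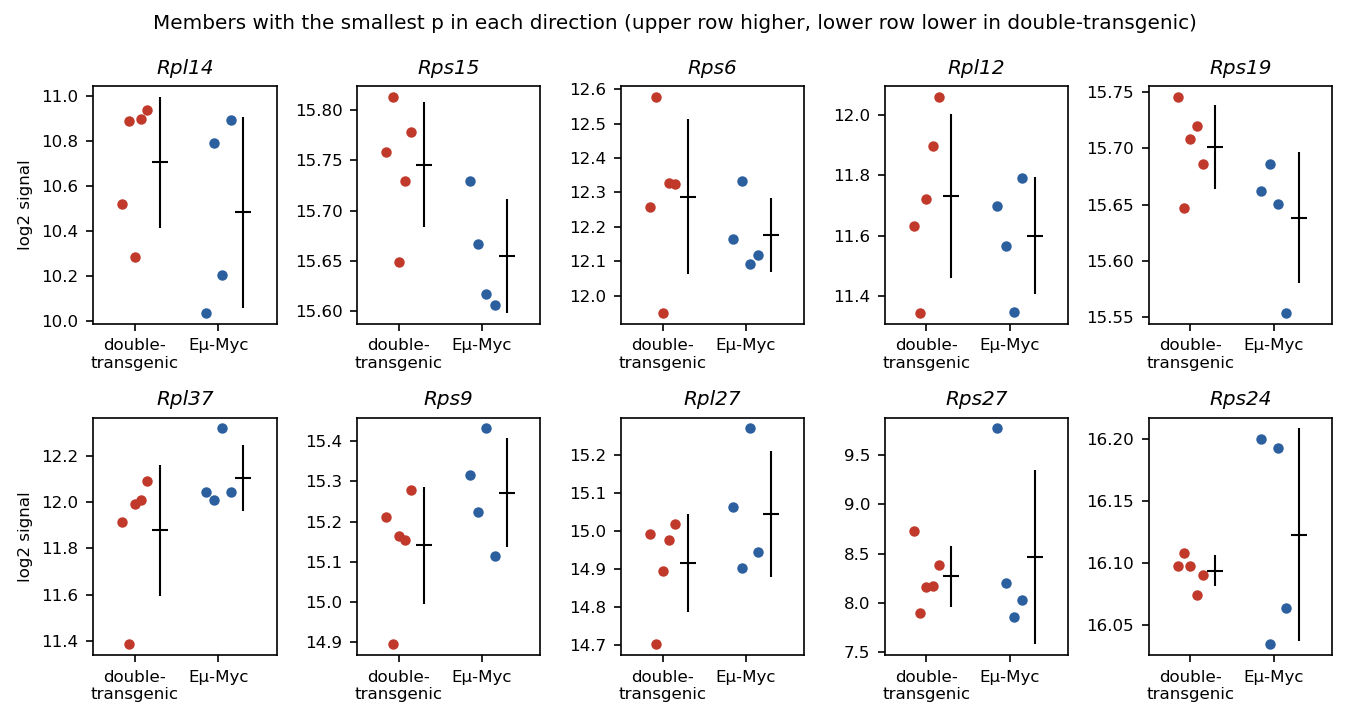
Log2 signal of the 5 members with the smallest p in each direction, 1 point per lymphoma, double-transgenic in red on the left of each panel and Eμ-Myc in blue on the right. Black marks are means with SD (n = 5 and 4). The axes differ between panels and do not start at 0, and in each panel the groups overlap.

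Members known to bind Mdm2 and members whose human counterparts are mutated in Diamond-Blackfan anaemia lay on both sides of 0. Of 5 tested Mdm2 binders (Rpl11, Rps3, Rps7, Rps14 and Rps27), 3 had a positive and 2 a negative difference with a median difference of 0.0081, and of 12 tested Diamond-Blackfan counterparts 7 had a positive and 5 a negative one with a median of 0.011. Rpl11 read 15.57, 15.45, 15.45, 15.51 and 15.49 in double-transgenic lymphomas, against 15.56, 15.49, 15.42 and 15.44 in Eμ-Myc lymphomas. Mdm2 itself had a difference of 0.082 (SE 0.10), and Cdkn1a, the p53 target that encodes p21, ran from 5.49 to 11.20 over the 9 tumours.

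Members moved together only in part, and by an amount that the scaling changed. Over the 820 pairs of members, Pearson's r over the 9 tumours had a median of 0.25 (Spearman's rho 0.28), against 0.013 over all pairs of tested genes and 0.060 over pairs of the other genes above 14. The median r was higher within ribosome biogenesis genes (0.44) and mitochondrial ribosomal protein genes (0.35), and 0.0063 within other mRNAs with a TOP tract. Moving together was thus not particular to the members. With a further quantile normalisation the members' median was 0.091, and with median centring it was 0.54, where that of the other high-signal genes was 0.16. The points are 9 tumours that share array-wide scaling, so any common shift of bright probe sets would enter each pair. Its part in these values was not tested. The closest pair was Rpl6 with Rpl7a, both of the large subunit, at r = 0.94 (rho 0.98). The brightest Rps7 probe set, of the _x_at class, had a median r of -0.20 to the other 40 members and r of -0.77 with Rps2. A second Rps7 probe set, with a mean of 15.35, did not share this: its median r was 0.30, its r with Rps2 was 0.38, and its r with the brightest one was -0.074.

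The shared part can be read tumour by tumour. Double-transgenic replicates 5 and 4 had 32 and 25 of 41 members above the gene's own median, with a median deviation of 0.038 and 0.034. Eμ-Myc replicate 4 had 35 members below it, double-transgenic replicate 3 had 28 and Eμ-Myc replicate 3 had 25, with median deviations of -0.039, -0.035 and -0.029. Both genotypes held tumours in which most members were low. The mean of all 41 members ran from 14.62 to 14.75 in double-transgenic and from 14.64 to 14.72 in Eμ-Myc lymphomas.

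**Figure D4:**
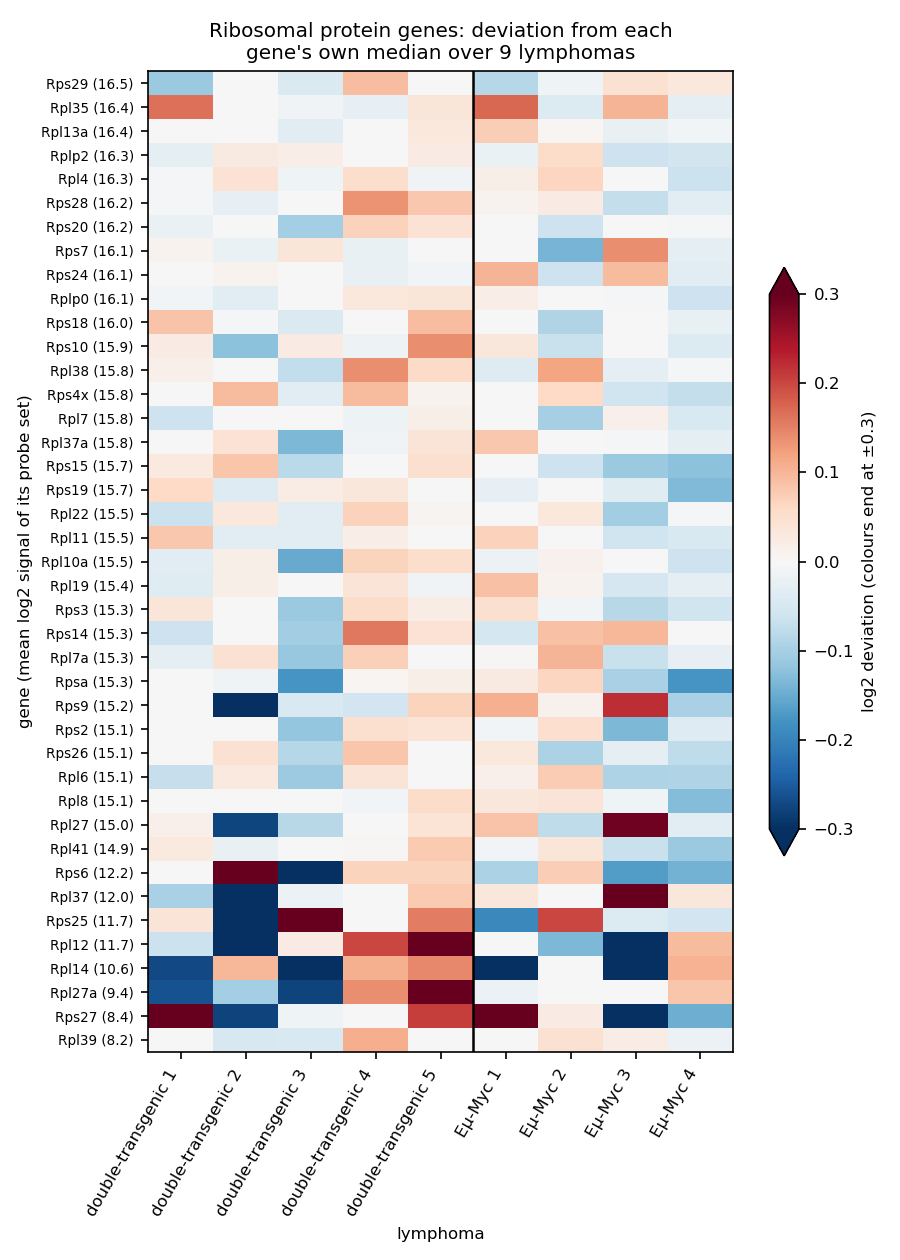
Rows are the 41 tested members from the highest mean signal (top, mean in brackets) to the lowest, columns the 5 double-transgenic and then the 4 Eμ-Myc lymphomas, and colour is the log2 deviation from the gene's own median, ending at 0.3 either way. Deep colours are mostly in the 8 rows of lower signal, though not in that of Rpl39, and in the rows of Rps9 and Rpl27.

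Ribosomal protein genes are scattered over the genome, and the 41 members lie on 15 chromosomes, with 6 on chromosome 7 and 5 on chromosome 17. Some of these lymphomas show a raised or lowered median of all genes of a chromosome, so the members there could be set beside it. A chromosome's value in a tumour is the median log2 deviation of its tested genes, members left out, from each gene's own 9-tumour median. At a limit of 0.15, chosen after such medians had been seen, 13 of 180 pairs of chromosome and tumour stood out, 10 raised and 3 lowered. Tested members lay on 10 of these 13 pairs, and none lay on chromosomes 16 and 19.

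Members on raised chromosomes mostly lay above their own median. On bright probe sets they did so by less than their neighbours, and on dim ones the few values were mixed. Over the raised pairs, 12 of 14 member values lay above the gene's own median, and their median deviation was 0.094 where the median of the chromosome values was 0.33. For members with a mean signal over 14 it was 0.087 over 10 values, 9 of them above the own median and the highest 0.14. On the brightest member probe sets under 14, 1 per gene, it was 0.56, above the median of the chromosome values. That median is itself a value of Rps27, which gave 0.56, 0.21 and 1.60 in different tumours. Rps10 and Rps18 gave 0.95 and 0.83, both in double-transgenic replicate 5, and Rps24 (0.15) and Rpl37 (-0.018) lay below their chromosome's value. Other genes of the raised chromosomes shifted by a median of 0.14 at signals of 4 to 8, 0.32 at signals of 8 to 10, 0.35 at 10 to 12, 0.31 at 12 to 14, and 0.18 above 14 (102 values). Their shift was thus smaller at both ends of the scale than between 8 and 14. What part the limit of the scale had in it was not tested.

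Chromosome 17 in double-transgenic replicate 5 is the clearest case. The chromosome stood 0.33 higher over 513 other genes, and all 5 members on it (Rpl10a, Rps2, Rps10, Rps18 and Rps28) lay above their own median, by 0.042 to 0.14. Rps10, whose mutation in humans causes a Diamond-Blackfan anaemia, read 16.04 there, against 15.77 to 15.93 in the other 8 tumours. Rps18, at the head of the small subunit, read 16.12 there, against 15.94 to 16.12 in the others. On dimmer probe sets of the same genes the tumour stood 0.95 above the median for Rps10, and 0.83, 0.65 and 0.10 above it on the 3 for Rps18. Dim member probe sets were high in this tumour on other chromosomes too: over all 18 genes with one, 15 lay above their own median, with a median deviation of 0.15. In that tumour 26 of 35 members on other chromosomes were above their own median too, with a median of 0.032, against 0.087 for the 6 members on raised chromosomes.

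In Eμ-Myc replicate 3 the members on raised chromosomes went against the other members. Chromosomes 12, 14 and 18 stood 0.35, 0.19 and 0.32 higher there, and the 4 members on them, Rps7 and Rps29 (chromosome 12), Rps24 (14) and Rps14 (18), were all above their own median with a median deviation of 0.097. Of the 36 members on chromosomes without such a shift, 7 were above and 24 below, with a median of -0.033. All 4 members on the raised chromosomes were read on probe sets of the _x_at class. Members of that class on chromosomes without a shift lay on both sides: Rps9 (15.43) was highest there of all 9 tumours and Rps2 (15.03) lowest. The part of the probe set class in this contrast was not tested. Rps7, which also binds Mdm2, read 16.25 in that tumour, against 15.98 to 16.15 in the other 8, and 15.40 on its second probe set, among 15.25 to 15.41 in all 9. On chromosome 15, raised by 0.21 in double-transgenic replicate 3, Rpl8 and Rpl37 did not rise (0.00 and -0.018).

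Rps27, on chromosome 3, followed its chromosome in 4 of the 5 tumours in which that stood out. It was 0.56 above its own median in double-transgenic replicate 1, 0.21 in double-transgenic replicate 5 and 1.60 in Eμ-Myc replicate 1, where the chromosome stood 0.25, 0.26 and 0.25 higher. It was at -0.32 in Eμ-Myc replicate 3, where the chromosome stood at -0.21, and at 0.024 in Eμ-Myc replicate 2, where it stood at -0.18. In Eμ-Myc replicate 1 the Rps27 deviation was several times that of the chromosome.

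**Figure D5:**
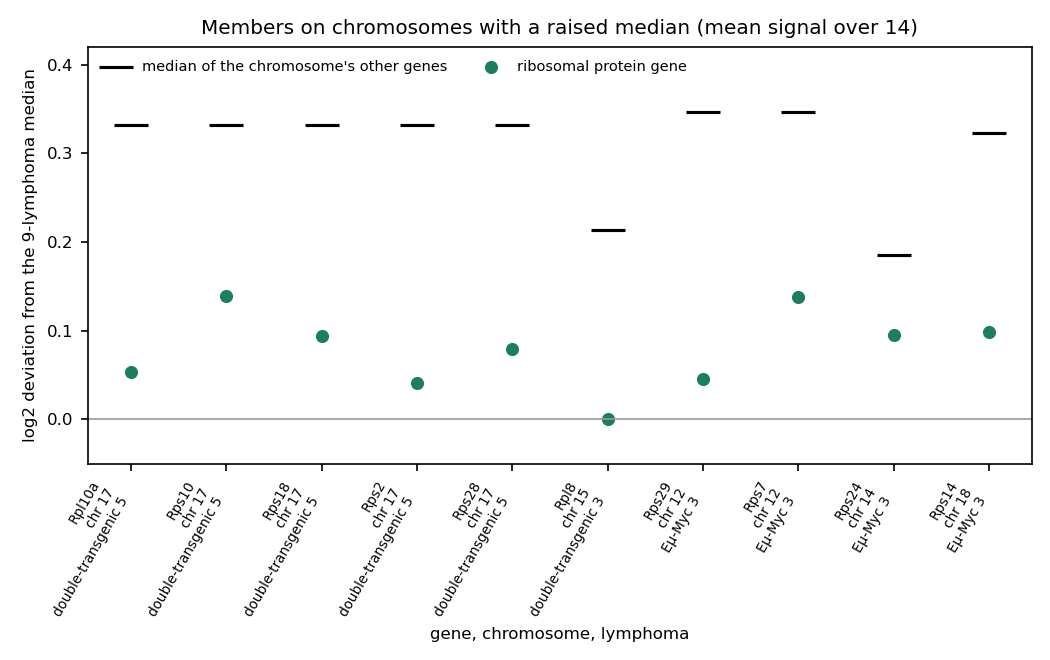
Log2 deviation from the 9-lymphoma median of each member with a mean signal over 14 on a chromosome with a raised median (green points), beside the median of the chromosome's other genes in the same lymphoma (black bars). Gene, chromosome and lymphoma are named under each point. Of the 10 points, 9 lie above 0, and all 10 lie below their bar.

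Genes outside the symbol rule give the frame. Rpl7l1, a paralogue of Rpl7 that acts in ribosome assembly, read 12.65, 12.17, 12.40, 12.31 and 13.41 in double-transgenic lymphomas, against 12.14, 12.09, 11.42 and 12.14 in Eμ-Myc lymphomas. The groups did not overlap, and the highest value is in double-transgenic replicate 5, where chromosome 17, which holds Rpl7l1, was raised. The difference was 0.64 (SE 0.28), which did not pass over all genes (limma adjusted p = 0.845, exact permutation p = 0.0159, two-sided). Rpl7 itself had a difference of 0.021 and an SD of 0.0395.

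Rpl22l1, whose mRNA is held down by the protein of its paralogue Rpl22 in mice, read 14.53, 14.60, 13.62, 14.55 and 14.71 in double-transgenic lymphomas, against 14.88, 14.54, 14.57 and 14.74 in Eμ-Myc lymphomas. Double-transgenic replicate 3 was low for Rpl22l1, while the brightest Rpl22 probe set read 15.52 there, among 15.44 to 15.62 in the 9 tumours. Rps27l, a paralogue of Rps27 that p53 induces, had a difference of -0.10 (SE 0.097, limma adjusted p = 0.899, exact permutation p = 0.0635, two-sided). Rps3a1, a ribosomal protein gene whose symbol falls outside the rule, read 16.33 to 16.51 over the 9 tumours and had a difference of -0.019.

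Other groups of the translation machinery did not pass the test either. Of 16 other mRNAs with a TOP tract, 8 had higher and 8 lower means in double-transgenic lymphomas, with a median difference of 0.0020 and a median SD of 0.088. Of 30 ribosome biogenesis genes 13 were higher and 17 lower (median -0.042, median SD 0.22), among them Ppan with 0.24 (SE 0.14) and Gnl3 with -0.15 (SE 0.099). Of 76 mitochondrial ribosomal protein genes 48 were higher and 28 lower (median 0.043, median SD 0.23), among them Mrpl18 with 0.23 (SE 0.11). In these 3 groups 0 genes had a limma adjusted p under 0.05, beside 0.0% of all genes, and 0 an unadjusted p under 0.05, beside 5.67%. Of all genes, 58.9% had the higher mean in double-transgenic lymphomas.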

How the data were processed

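RNA of 9 lymphomas was hybridised to 1 Affymetrix mouse array each, per the labels' protocols. The authors deposited 1 table of probe set intensity values, made with GCRMA per the submitters' processing notes, which give no version or settings. The deposited intensity values are linear, so log2 was taken without a pseudocount. GCRMA as usually run corrects background by probe sequence and normalises arrays by quantiles, after which a shift in the sum of abundant mRNAs can be hidden. Precision is limited by there being 9 arrays.

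The platform annotation gives 1 gene to 34945 of the 45037 probe sets, several to 932 and lists none for 9160; only the first kind was used. A gene was represented by its brightest probe set (highest mean log2), and the 10172 genes over a log2 value of 4 in at least 4 arrays were fitted with limma 3.58.1 in R 4.3.3 (two-sided, Benjamini-Hochberg, threshold 0.05, no covariates). Chromosomes came from the RefSeq table of GRCm38.p6. Exact permutation of single genes used the 126 splits into 5 and 4, whose smallest p is 0.00794. On simulated data limma called 8 of 9972 unchanged genes, and 42%, 72%, 84% and 90% of 50 genes at log2 changes of 1, 2, 3 and 4, all planted together. The changed genes were drawn from all tested genes, and each planted change was larger than any member difference. These shares thus do not give the power for members.

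Members and lists were chosen with earlier results of these data known. Named members were the 5 of each direction with the smallest p, the 6 with the largest and smallest SD, the 5 of highest and lowest signal, and those on shifted chromosomes. The labels call the samples biological replicates. Alternatives were other filters, other choices of probe set, quantile normalisation, median and chromosome centring, a pseudocount of 16, a robust prior with an intensity trend, weights per array, a replicate block, and each array left out; probe sets with a mean under 14 were added after seeing the data.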

Additional observations from a re-analysis of the deposited data

Results flagged for a closer look

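In 5 of 82 groups of values (41 members in each genotype) a single lymphoma stood far from the others of its group, where chance gives about 1 in 20, or 4.1. Double-transgenic replicate 2 had 11.39 for Rpl37, where the rest of its genotype had 11.91 to 12.09. Eμ-Myc replicate 3 had 12.32 for the same gene, where the rest of its genotype had 12.01 to 12.04. Rpsa, a small subunit protein also known as the laminin receptor, read 15.14 in double-transgenic replicate 3, where the rest of the group read 15.30 to 15.33. Rpl8 read 15.16 in double-transgenic replicate 5, against 15.10 to 15.11, and Rps20 read 16.14 in Eμ-Myc replicate 2, against 16.20 in each of the other 3. These last 2 values differ from the median of their group by 0.055 and -0.060.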

How the results depend on the processing

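In every alternative run, 0 members passed the threshold. In 0 members did the groups not overlap, counted in all alternatives that change the values or the arrays, so not for the intensity trend, array weights and replicate block. Over all genes limma called 8 without Eμ-Myc replicate 3, 1 without Eμ-Myc replicate 4 and 0 in the other settings. The numbers of higher members that moved were 4 with median centring, 16 with chromosome centring, 49 of 88 over all probe sets, and 9 of 18 on probe sets under 14. The median difference was -0.060 with median centring and -0.013 with chromosome centring. The median SD was 0.081 with median centring, 0.085 with chromosome centring and 0.35 on probe sets under 14. The median pair correlation was 0.091 with quantile normalisation and 0.54 with median centring. The median deviation on raised chromosomes was 0.116 without _x_at probe sets, 0.12 with median centring, 0.56 on probe sets under 14 and -0.22 with chromosome centring, which subtracts the shift. With arrays left out in turn, the median difference ran from 0.0053 to 0.027, the number higher from 22 to 31, the median SD from 0.061 to 0.066, the median pair correlation from 0.22 to 0.29, and the deviation on raised chromosomes from 0.077 to 0.097. On lowered chromosomes, which rest on 2 values of Rps27, it ran from -0.31 to 0.012.

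Of the 10 named members, Rps24 changed sign with the mean of probe sets (0.0046), without _x_at probe sets (0.25), with quantile normalisation (0.019) and with chromosome centring (0.017). Rps9 did so without _x_at probe sets (0.027), Rps19 with median centring (-0.013), and Rps27 with array weights (0.025) and over the arrays left out (-0.40 to 0.24). The causes were not tested. With the replicate numbers as a block, 0 members passed and the median difference was 0.0086. Samples with the 4 shared numbers deviated together with correlations of -0.089, 0.092, -0.0033 and 0.20. Only for number 4 was the best-matching Eμ-Myc lymphoma the one of the same number. Whether the numbers stand for a pairing is not given, and such correlations cannot settle it. Of 41 intervals in the limma fit reported, 37 lay within 0.5 either way and 0 within 0.2. The median SE of the members, 0.094 there, was 0.050 with an intensity trend and 0.044 with no filter, so the limit set by the fit was wider than under these.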

Other observations

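The 10 tested genes outside the list whose log2 values most resembled the mean of the 41 members over the 9 lymphomas had Pearson's r of 0.82 to 0.95, picked for this likeness from all tested genes and given as a description. They were Zbtb33, Snhg5, Mrpl43, Tut1, Xpnpep1, Uqcc3, Pdcd11, Echdc2, Tcp1 and Wdr7. Members of large spread, mostly those of lower signal, weigh most in the mean of the members. In Eμ-Myc replicate 1 that mean was 14.72, where Rps27 lay 1.60 above its own median. The members' median deviation in that tumour was 0.0019. Snhg5 (r = 0.91) is a snoRNA host gene whose transcript begins with a TOP tract. Of the 10, 5 lie on chromosome 19, which holds 371 of the 10172 tested genes and no tested member. That chromosome's median stood at -0.46 in double-transgenic replicate 3 and at 0.33 in double-transgenic replicate 5, which are also the tumours with the lowest (14.62) and highest (14.75) mean of the members. By the members' median deviation, double-transgenic replicate 5 was again highest (0.038), but Eμ-Myc replicate 4 (-0.039) lay below double-transgenic replicate 3 (-0.035). Whether the chromosome and the members go together was not tested.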
